A study of Mus musculus with 3 samples.

Results

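Binding of the cofactor FOG2 was examined at 8 SOX genes, Sox4, Sox5, Sox6, Sox7, Sox9, Sox11, Sox17 and Sox18, in mouse hearts at E12.5 (days of gestation), in tissue from the ventricles. The 8 genes were chosen by peaks already known from the same peak list, and a peak belonged to a gene when its summit lay nearest to that gene's body and within 100 kb of it. By this rule 14 of the 6166 peaks belonged to 4 of the 8 genes, and Sox7, Sox11, Sox17 and Sox18 had none. For comparison, 13.6% of the 21631 protein-coding genes had a summit. Because the peaks themselves chose the genes, all counts and folds at them are a description and none was tested.

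The study mapped FOG2 on chromatin in 2 pulldown libraries and 1 input library, each pulldown made from about 20 ventricles. Per the protocol, the embryos were Fog2 flbio/flbio and Rosa26 BirA/BirA, so that the tagged FOG2 was biotinylated by the ligase BirA and recovered on streptavidin beads; the genotype label itself reads WT and the antibody label FOG2. The tissue was fixed in 1% formaldehyde for 10 minutes and sheared to 300 to 800 bp. The authors pooled the pulldowns into a single peak list, so neither a spread between replicates nor a difference between libraries can be given. The control was input rather than a pulldown from hearts with BirA and no tagged FOG2. Whole ventricles hold muscle, endocardium, vessels, epicardium and cushion cells, and the cell type in which a site was bound cannot be told apart; RNA was not analysed here, so no cell type marker could be checked.

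FOG2 (gene Zfpm2) is a cofactor with several zinc fingers, which acts on genes through GATA factors and recruits corepressors to them. SOX proteins are transcription factors with a shared DNA-binding HMG box, and they fall into groups by sequence. Group D (Sox5, Sox6) carries a coiled coil for pairing and no activation domain of its own, group C (Sox4, Sox11) acts in progenitor cells and in the outflow tract of the heart, Sox9 of group E drives cartilage and cushion mesenchyme, and group F (Sox7, Sox17, Sox18) acts in endothelium and endocardium.

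The group D genes carried most of the summits, 11 of the 14, and the other 3 were at Sox4 and Sox9. Folds below are the authors' ratios of pulldown to control at the summit, as their peak caller wrote them. The number of pulldown fragments behind each summit was recovered from the fold and its −log10 p, and the ranges after it are exact 95% Poisson intervals for counting error alone. The control level is in the same fragment units, and the lowest in the list was 0.588. All positions are on mm10.

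Sox5 encodes a group D factor, and its human locus is associated with atrial fibrillation. The gene spans chr6:143828425-144782287, 954 kb, with Etnk1 as the nearest protein-coding gene below it, 620 kb away, and Bcat1 above it, 212 kb away. It had 7 summits, and 0.176% of protein-coding genes had as many. Its territory is the stretch of genome nearer to Sox5 than to any other protein-coding gene within 100 kb, and measured 1154 kb. At the mean density of 2.52 per Mb of territory it would hold 2.91 summits. The difference from 7 was not tested, because the peaks themselves chose the gene. Of the 7 summits 4 remained at a fold of at least 5, as many as at Sox6, and 4 at a −log10 q of at least 5. With summits assigned to the nearest gene end 2 remained, the strongest of them 9.95-fold. Of the 7 summits, 6 lay inside the gene body, which is 954 kb long against a territory of 1154 kb, and 1 lay outside. Among other peaks within 100 kb of a gene, 60.2% lay inside a gene body. Counted over genes instead, 8.31% of protein-coding genes had a summit inside their body.

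The strongest SOX summit lay near the middle of Sox5, 495 kb from the lower end and 458 kb from the upper end of the gene. The peak, chr6:144323553-144324500, was 34.1-fold over control with 56 fragments (42.3 to 72.7), a control level of 0.672 and a −log10 q of 81.4. It ranked 33rd of the 6166 peaks by fold and 88th by width, at 948 bp. Its fragment interval overlapped that of 0 of the other 13 SOX summits. It was 3.43 times the next highest fold among them and held 46.7% of the 120 fragments summed over the 7 Sox5 summits. It was also the only SOX summit of at least 10-fold among the 14, where 16.9% of all peaks and 3.01% of protein-coding genes (through an assigned summit) reached that fold.

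A pair of weak peaks stood close to the strong one inside Sox5. The peak at chr6:144309497-144309666 was 4.35-fold with 6 fragments (2.20 to 13.1), and the one at chr6:144312671-144312840 was 4.06-fold with 8 fragments (3.45 to 15.8). Their summits were 3.22 kb apart, and the second lay 11.1 kb from the strong summit, so that these 3 of the 7 Sox5 summits fell within 14.4 kb. Both were at the low end of the list, since 94.7% and 97.2% of all peaks had a higher fold. Their −log10 q values were 2.24 and 2.10.

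The remaining Sox5 summits were spread over the gene and beyond its upper end. The lowest of them along the chromosome, chr6:144162125-144162605, was 7.54-fold with 12 fragments (6.20 to 21.0). The peak at chr6:144621840-144622047 was 4.96-fold with 10 fragments (4.80 to 18.4). The peak at chr6:144766120-144766517, 16.0 kb inside the upper end, was 8.12-fold with 13 fragments (6.92 to 22.2). Outside the gene, 57.7 kb beyond that end, the peak at chr6:144839578-144840125 was 9.95-fold with 15 fragments (8.40 to 24.7), and its summit also fell within a noncoding gene, Gm32124, and a pseudogene, Gm20124. The intervals of these 4 summits overlapped each other. The RefSeq promoter windows available here cover 1 start for Sox5, at 143947106 on the minus strand. It is an internal start, 835 kb from the 5′ end of the gene body, so the windows may lack other starts of Sox5. The 6 summits inside the body were upstream of this start but not of the gene. The nearest summit was 215 kb from it and the strongest 377 kb. The 250 bases before that start held no match to the GATA, T-box or SOX motifs, whose letters are given with the Sox6 sequences.

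**Figure D1:**
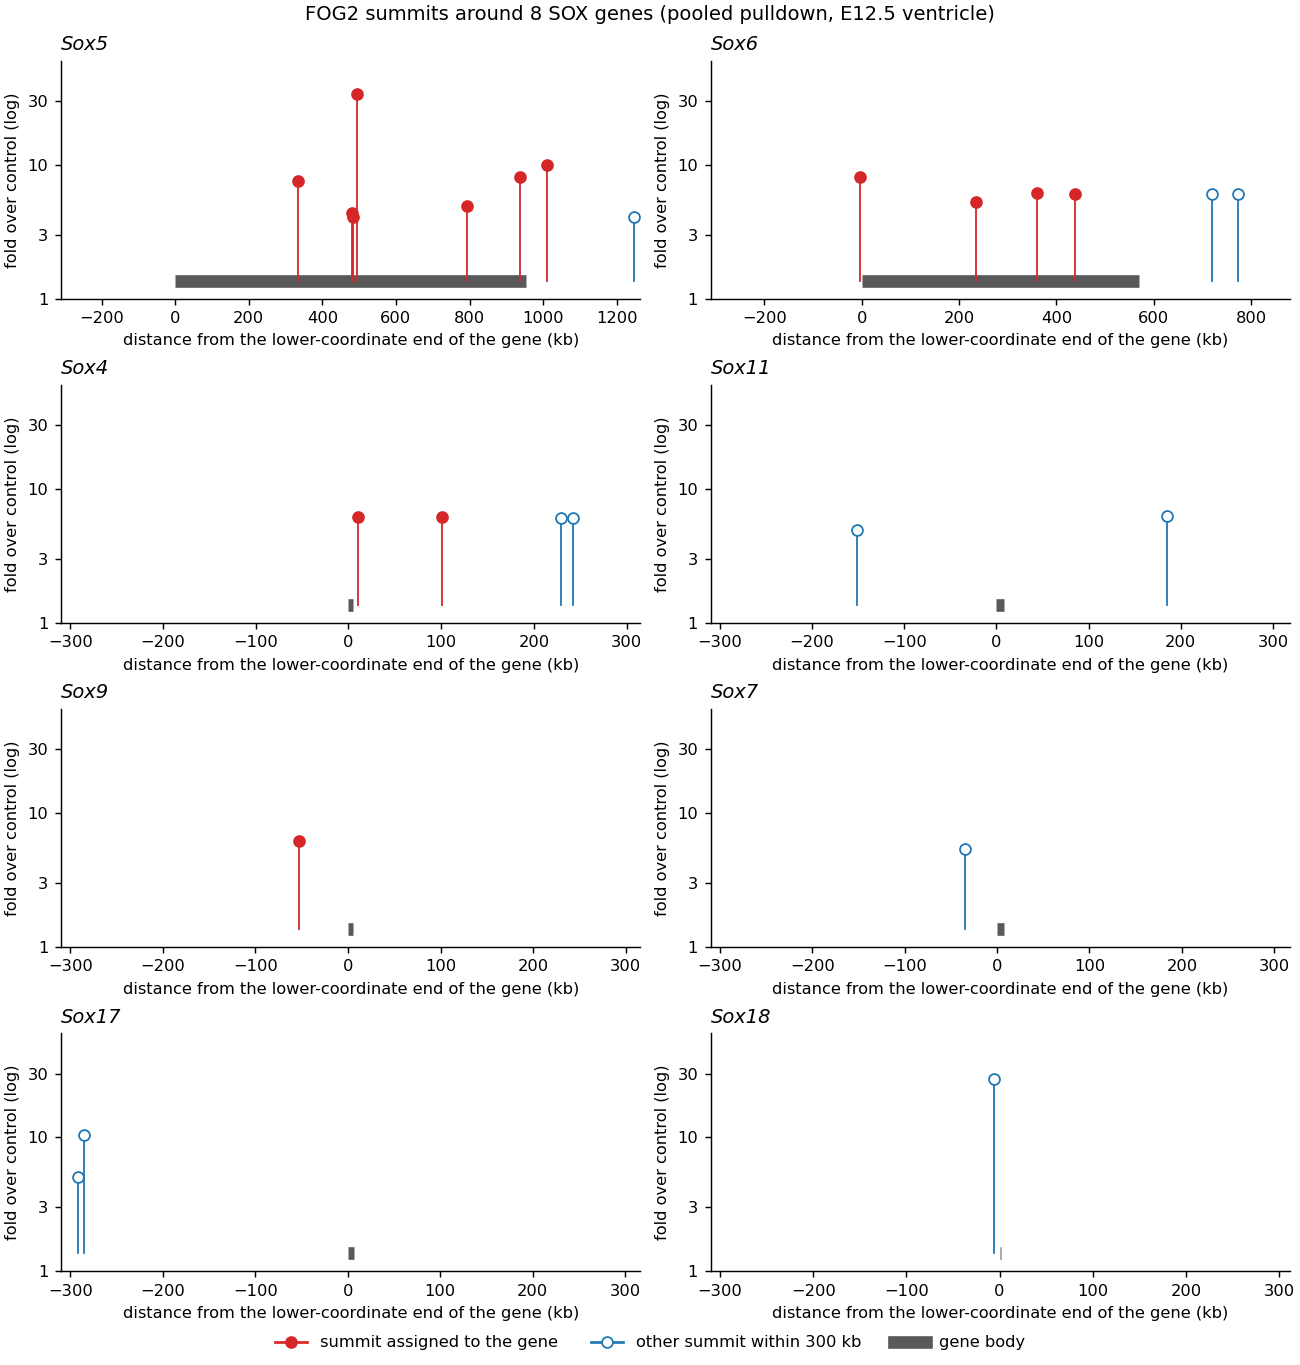
Position and fold of every FOG2 summit within 300 kb of each of the 8 SOX genes. The x axis is the distance in kb from the lower-coordinate end of the gene, the y axis is the fold over control on a log scale, grey bars are gene bodies, filled red points are summits assigned to the gene and open blue points are the others. Sox5 has 7 filled points with one at 34.1-fold, and Sox18 has a single open point at 27.1-fold beside the gene.

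Sox6, the other group D gene of the 8, is known to repress slow-fibre genes in developing skeletal muscle. It spans chr7:115470872-116040776, 570 kb, between Insc (620 kb below) and 1110004F10Rik (40.6 kb above). Sox6 had 4 summits where its territory of 690 kb would hold 1.74, and 0.892% of protein-coding genes had at least 4. The 4 summits were not tested against 1.74 either. Relative to the mean density, the ratio was 2.41 at Sox5, 2.30 at Sox6, 3.87 at Sox4 and 1.93 at Sox9, and 0 at the members without a summit. The ratios at Sox4 and Sox9 rest on 2 and 1 summits. The territories of Sox4 and Sox9 would hold 0.517 and 0.519, and none of the ratios was tested.

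The Sox6 summits were of even strength, from 5.31- to 8.12-fold. The strongest, chr7:115466771-115467125, lay 3.92 kb outside the lower end of the gene and was 8.12-fold with 17 fragments (9.90 to 27.2). RefSeq lists Sox6 on the minus strand, so this summit lay beyond the 3′ end of the gene. Inside the gene, chr7:115706223-115706414 was 5.31-fold with 14 fragments (7.65 to 23.5), chr7:115830978-115831199 was 6.21-fold with 11 fragments (5.49 to 19.7), and chr7:115909041-115909350 was 6.02-fold with 10 fragments (4.80 to 18.4). All 4 intervals overlapped. Fold and fragments ran in different orders because the control level differed, being 1.83 at the 5.31-fold summit and 0.828 at the 6.02-fold one. A further peak, at 3.61-fold with 7 fragments (2.81 to 14.4), had Sox6 as its nearest gene at 301 kb and fell outside the 100 kb limit. On the other side, both summits in the body of Plekha7, 149 and 204 kb from Sox6, were 6.08-fold.

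The available RefSeq windows cover 6 starts for Sox6, and none had a summit in the window of 250 bases before it. None of the 6 is at the 5′ end of the gene body, the closest being 2.03 kb from that end. The nearest summit to each lay between 6.40 and 129.6 kb away. Of these starts, the 2 whose windows are shown are those closest to a summit: the start at 115824710, with the 6.21-fold summit 6.40 kb upstream, and the start at 115846140, with the same summit 15.0 kb downstream. Capitals mark matches to the GATA motif, written AGATAA with its variant AGATAG, or TGATAA with its variant TGATAG, and searched on both strands, because FOG2 reaches DNA through GATA factors. Both are internal starts, 216 and 195 kb from the 5′ end of the gene body. Both sequences are given 5′ to 3′ along the minus strand of GRCm38.p6, from RefSeq.
Sox6, chr7:115824711-115824960: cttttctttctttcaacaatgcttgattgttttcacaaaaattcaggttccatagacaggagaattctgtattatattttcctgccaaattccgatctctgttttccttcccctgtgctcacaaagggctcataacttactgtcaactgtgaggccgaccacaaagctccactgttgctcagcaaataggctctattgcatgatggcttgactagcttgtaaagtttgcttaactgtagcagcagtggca
Sox6, chr7:115846141-115846390: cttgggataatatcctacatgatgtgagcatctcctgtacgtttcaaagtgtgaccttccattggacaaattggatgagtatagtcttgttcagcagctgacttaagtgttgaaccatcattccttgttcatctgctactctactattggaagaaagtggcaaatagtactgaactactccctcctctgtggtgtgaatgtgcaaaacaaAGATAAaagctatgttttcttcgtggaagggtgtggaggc

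The window nearest a summit held no GATA match and 2 SOX matches, at 236 and 225 bases before the start. SOX matches were AACAAT or its reverse complement ATTGTT, or the longer form AACAAAG, on either strand. The second window held 1 GATA match at 40 bases before the start, overlapping a SOX match (AACAAAG) that began at 45, and 1 T-box match (GGTGTGA) at 60; the T-box search used GGTGTGA with the shifted form AGGTGTG on both strands. A match describes the letters and not a bound site.

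Sox4, a group C gene needed for outflow tract septation in the mouse, had 2 summits, and its body held neither. The gene spans chr13:28948919-28953699 on the minus strand and the nearest protein-coding genes are Prl5a1, 797 kb below, and Cdkal1, 238 kb above. The nearer summit, in chr13:28959219-28959426, lay 5.64 kb upstream of the listed start and was 6.17-fold with 9 fragments (4.12 to 17.1). It fell within the body of a noncoding gene, Gm46405. The other, in chr13:29049345-29049572, lay 95.7 kb upstream and was 6.21-fold with 11 fragments (5.49 to 19.7), the member summit closest to the 100 kb limit from inside. A noncoding gene lay 9.10 kb from that summit. Its fold and −log10 p equal those of the 6.21-fold Sox6 summit, so both were solved as 11 fragments over a control level of 0.931. Sox4's territory of 205 kb would hold 0.517 summits. Farther upstream, the next summits, 225 and 237 kb from Sox4, were 6.08- and 6.12-fold and nearest to Cdkal1.

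Sox11, the group C partner of Sox4 with overlapping roles in the embryo, had no summit within 100 kb. Sox11's territory of 209 kb would hold 0.527 summits, beside 0.517 at Sox4. The difference between 0 summits at Sox11 and 2 at Sox4 was not tested. The gene spans chr12:27334268-27342718 on the minus strand, with Cmpk2 854 kb below it and Dcdc2c 1095 kb above it. A summit lay on either side of it beyond the limit. The one downstream, chr12:27183163-27183678, was 151 kb from the body and 4.96-fold with 13 fragments (6.92 to 22.2). The one upstream, chr12:27518690-27519115, was 176 kb away and 6.30-fold with 9 fragments (4.12 to 17.1). Of the summits nearest to a member but beyond the 100 kb limit, these lay closest to that limit. With no limit Sox11 would have 2 summits, as Sox4 has.

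The starts of both group C genes lacked a summit in the 250 bases before them. Their windows are shown because the pair differ in GATA matches and in the distance of the nearest summit. Capitals again mark GATA matches, and both run 5′ to 3′ along the minus strand of GRCm38.p6, from RefSeq.
Sox4, chr13:28953700-28953949: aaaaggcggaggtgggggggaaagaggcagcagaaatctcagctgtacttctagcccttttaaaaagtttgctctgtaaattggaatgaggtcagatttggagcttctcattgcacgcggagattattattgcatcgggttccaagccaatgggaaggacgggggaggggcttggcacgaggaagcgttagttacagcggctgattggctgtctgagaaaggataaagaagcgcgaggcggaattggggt
Sox11, chr12:27342719-27342968: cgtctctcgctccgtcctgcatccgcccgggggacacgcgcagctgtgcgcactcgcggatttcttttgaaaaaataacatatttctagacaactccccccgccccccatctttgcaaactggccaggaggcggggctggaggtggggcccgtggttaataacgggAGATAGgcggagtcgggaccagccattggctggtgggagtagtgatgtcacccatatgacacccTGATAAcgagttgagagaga

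The Sox11 window held 2 GATA matches, at 84 and 20 bases before the start, and the Sox4 window held none. The nearest summit was 159 kb from the Sox11 start and 5.64 kb from the Sox4 start. In all, 9 windows were listed for 4 of the 8 genes (Sox4, Sox5, Sox6 and Sox11). A GATA match was in 2 of the 9, against 26.5% of all 32851 listed windows, a T-box match in 1, against 7.23%, and a SOX match in 4, against 13.8%. Sox6 supplied 6 of the 9 windows, among them all 4 with a SOX match and the 1 with a T-box match. A summit lay in 0 of the 9 windows when taken with the 50 bases after the start, against 0.225% of all windows.

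Sox9, the group E gene of cushion mesenchyme and cartilage, had 1 summit. The gene spans chr11:112782210-112787757 in a wide gene-poor region, with Gm11677 1056 kb below and Slc39a11 457 kb above. The peak at chr11:112728999-112729206 lay 53.1 kb below the gene and was 6.22-fold with 9 fragments (4.12 to 17.1), at a control level of 0.608. A noncoding gene lay closer to this summit, at 17.8 kb. It was the only summit within 300 kb of Sox9, and the nearest other summit on the chromosome was 651 kb from it. Sox9's territory of 206 kb would hold 0.519 summits, close to that of Sox4.

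**Figure D2:**
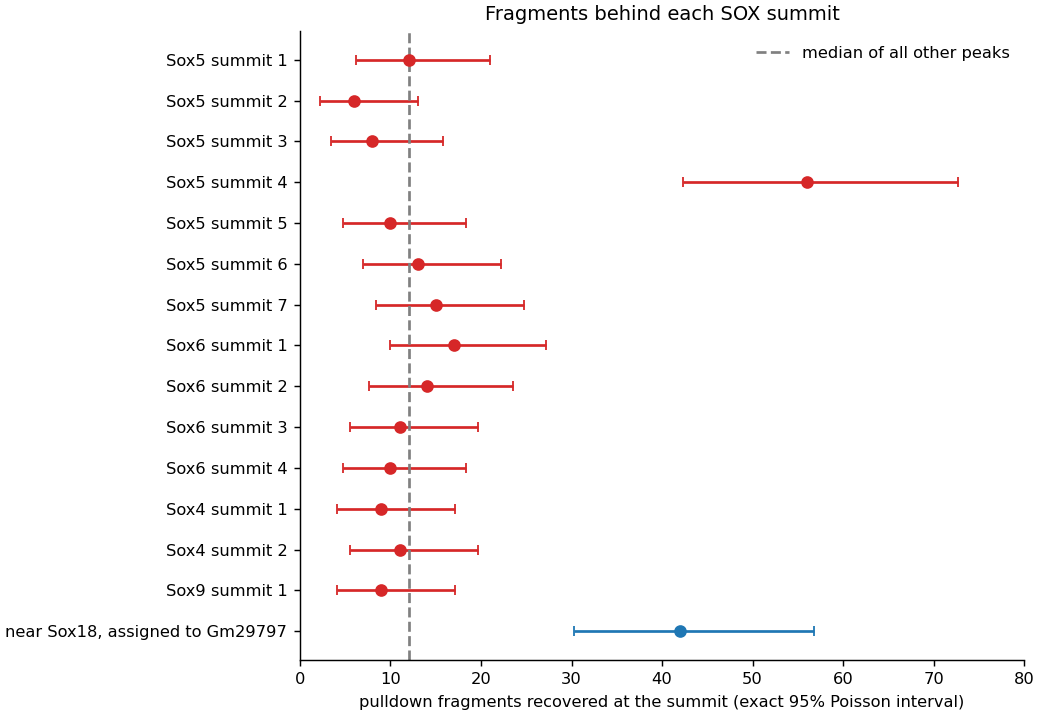
Pulldown fragments at each of the 14 SOX summits, numbered along the chromosome within each gene, and at the summit beside Sox18. Points are the recovered fragments, bars are exact 95% Poisson intervals, and the dashed line is the median of all other peaks (12). The fourth Sox5 summit, with 56 fragments, stands apart from the other 13, which range from 6 to 17, and the summit beside Sox18 has 42.

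None of the group F genes had a summit assigned, but Sox18 lay beside a strong peak. Sox18, which takes part in the formation of lymphatic and blood vessels, spans chr2:181669837-181671640. The peak at chr2:181662774-181663695 had its summit 6.37 kb from Sox18 and was 27.1-fold with 42 fragments (30.3 to 56.8), a control level of 0.588 and a −log10 q of 57.9. It ranked 77th of all peaks by fold and 102nd by width, at 922 bp. The rule gave it to Gm29797, a predicted protein-coding gene whose body ends 3.86 kb from the summit, and an annotated small nuclear RNA gene lay closer still, at 1.06 kb. Its fragment interval overlapped that of the strongest Sox5 summit. Counting any peak of at least 10-fold within 10 kb of a gene body, whichever gene was nearest, 2 of the 8 genes had one, Sox5 and Sox18, against 2.22% of protein-coding genes; this count was made after the Sox18 peak was seen.

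Sox7 and Sox17 had no strong summit nearby. Sox7, which acts early in endothelial cells, spans chr14:63943706-63950732 between Pinx1 and 4930578I06Rik, 23.8 and 20.4 kb away. The nearest summit, 35.0 kb off in the body of Pinx1, was 5.41-fold with 11 fragments (5.49 to 19.7). Sox17, a gene of endoderm and arterial endothelium, spans chr1:4490928-4497426, and its nearest summits, 285 and 292 kb away in the body of Rp1, were 10.4-fold with 17 fragments (9.90 to 27.2) and 5.04-fold with 7 fragments (2.81 to 14.4). The territories of Sox7, Sox17 and Sox18 measured 29, 147 and 11 kb and would hold 0.0731, 0.370 and 0.0277 summits, so a count of 0 at any of them could not be told from the mean density.

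Within 300 kb of the 8 genes lay 25 summits, of which 14 were assigned to them and 11 were not. The 11 were 1 near Sox5, 2 near each of Sox4, Sox6, Sox11 and Sox17, and 1 near each of Sox7 and Sox18. All but the 27.1-fold peak beside Sox18 and the 10.4-fold peak in Rp1 were between 4.06- and 6.30-fold.

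The medians of the SOX summits in fold, fragments and width lay within the quartiles of the other peaks. Their median fold was 6.21 (quartiles 5.49 and 7.97), against 6.39 (5.41 and 8.66) for the 6152 other peaks. The median summit rested on 11 fragments at SOX genes and on 12 elsewhere, with 10 or fewer at 6 of the 14 SOX summits (42.9%, Wilson 95% interval 21.4 to 67.4) and at 39.4% of other peaks. The median width was 225 bp at SOX genes and 251 bp elsewhere. Of the 14 summits, 5 had a fold over the median of all peaks (35.7%, 16.3 to 61.2). Another summit within 10 kb was present at 2 of the 14 (14.3%, 4.01 to 39.9), against 18.6% of other peaks.

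**Figure D3:**
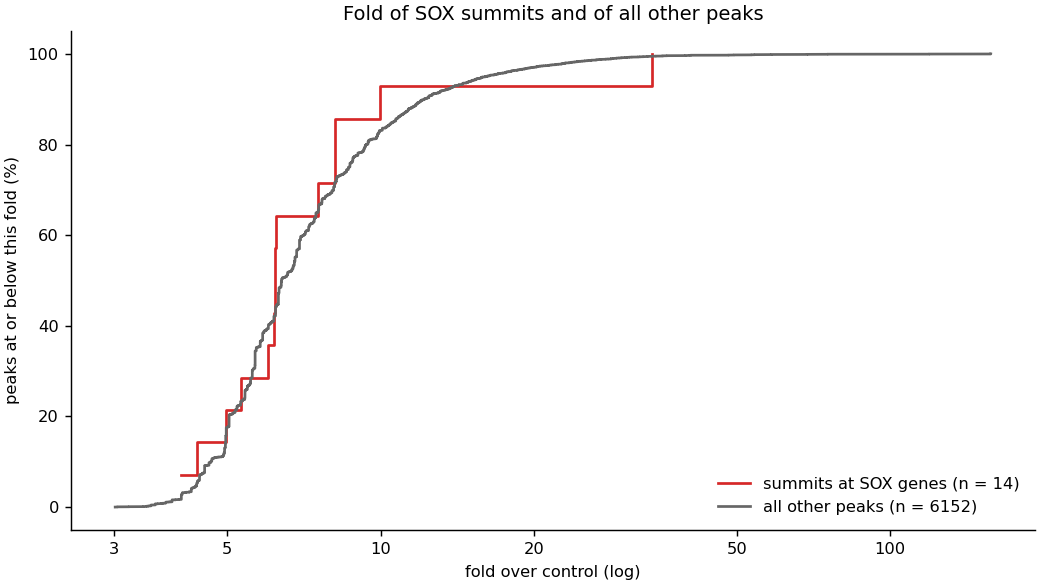
Cumulative share of peaks (y axis, percent) at or below each fold over control (x axis, log scale) for the 14 SOX summits in red and the 6152 other peaks in grey. The medians are 6.21 and 6.39, the curves cross at several folds, and the last red step is the 34.1-fold Sox5 peak.

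Strength and width went together at SOX genes. The 5 summits of highest fold were also the 5 widest peaks, and all 5 were at Sox5 or Sox6. Across the 14 summits the Spearman correlation of fold with width was 0.90, and across the other 6152 peaks it was 0.626. Both are descriptions over peaks that share the same pooled libraries and the same caller, which sets width and fold from the same pileup.

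Summits lay inside a protein-coding gene body in 9 of 14 cases at SOX genes (64.3%, 38.8 to 83.7), against 60.2% of the 4688 other peaks that also lay within 100 kb of a gene. All 9 were in Sox5 and Sox6, the 2 longest genes of the set. The other members are between 1.80 and 8.45 kb long, and all 3 summits assigned to them lay outside.

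In the rest of the SOX family, 1 gene had a summit. Of the 20 family genes, 19 lay on chromosomes with a peak, and Sry, on the Y chromosome, did not. Of these 19 genes 5 had a summit (26.3%), namely Sox2 besides the 4 members, so that among the 11 family genes outside the set the count was 1 (9.09%), beside the 13.6% over all protein-coding genes. Sox2, a group B1 gene of neural progenitors and the foregut, had a single peak at chr3:34725729-34726121, 73.5 kb above the gene and 8.70-fold with 13 fragments (6.92 to 22.2). Sox13, the third gene of group D, spans 42.2 kb and had none, with the nearest summit 137 kb away at 6.32-fold. Sox12 of group C and Sox8 and Sox10 of group E had none, and their nearest summits lay 147, 102 and 304 kb away. None was assigned to Sox1, Sox3, Sox14, Sox21, Sox15 or Sox30.

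**Figure D4:**
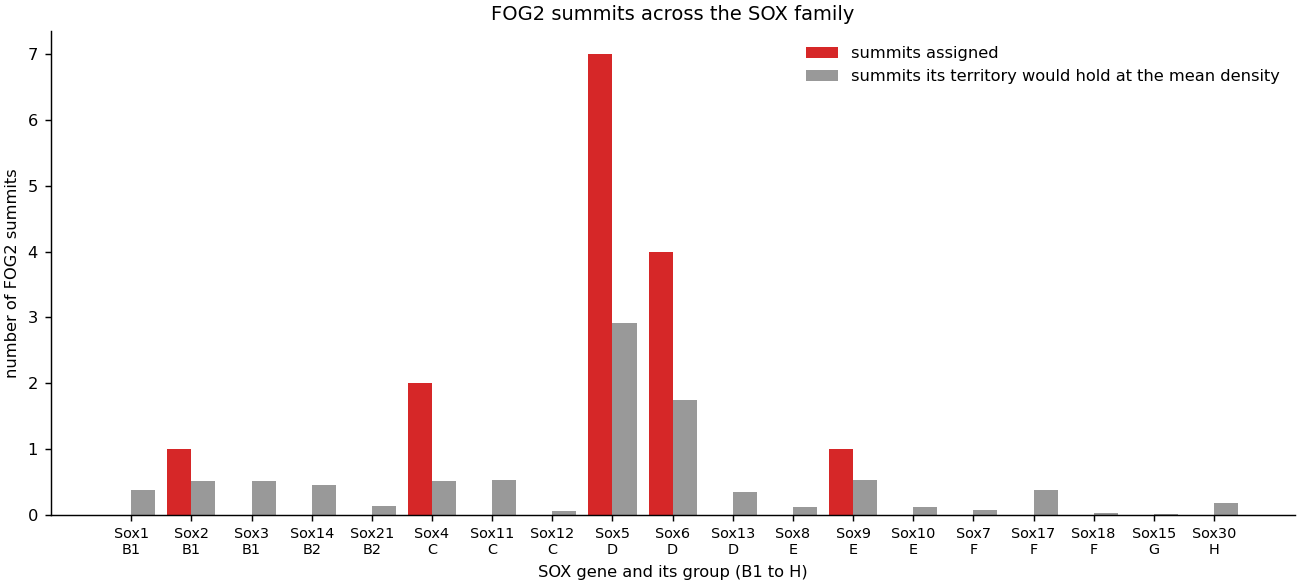
Number of FOG2 summits assigned to each SOX gene (red) beside the number its territory would hold at the mean density of summits (grey), with genes ordered by group. Sox5 has 7 against 2.91 and Sox6 has 4 against 1.74; 14 of the 19 genes have 0.

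Genes known to work with SOX factors were examined as lists, beside the 13.6% of protein-coding genes with a summit. The shares were not adjusted for territory. Its median was 37.5 kb in the SOX6 list, 151 kb in the endothelial list, 122.5 kb in the cushion and cartilage list and 91 kb in the group C list. These lists were written with earlier results of these data known. The endothelial and SOX6 lists share a gene, and several lists hold genes active in heart muscle. Nothing particular to SOX factors can therefore be read from the lists. Of 10 genes linked to SOX6, 7 had a summit (70%) and 3 had none. Most of the 10 are slow-fibre and globin genes that SOX6 represses in skeletal muscle or erythroid cells. The 3 without a summit were Nfix and the globin genes Hbb-y and Hbb-bh1. The highest folds were at Tnni1, slow skeletal troponin I (22.9-fold, 48 fragments), Myl3 (9.37-fold, 20 fragments), Myl2 (9.20-fold, 25 fragments) and Tnnc1 (7.53-fold, 13 fragments).

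Of 16 endothelial genes linked to group F factors, 7 had a summit (43.8%) and 9 had none. The 9 were Cdh5, Kdr, Flt1, Flt4, Tie1, Notch1, Notch4, Dll4 and Cldn5. Those with a summit were led by Nr2f2, a venous and lymphatic regulator (20.5-fold, 32 fragments, 39.2 kb from the gene). Next came the adhesion molecule gene Vcam1 (12.0-fold, 26 fragments, 12.4 kb), Rbpj of the Notch pathway (8.76-fold, 35.6 kb) and Tek (7.54-fold, inside the gene). Of 14 cushion and cartilage genes, 5 had a summit (35.7%) and 9 had none. The 9 were Col2a1, Col9a1, Col11a1, Col11a2, Matn4, Hapln1, Comp, Snai1 and Snai2. The leading peak was at Acan, the cartilage proteoglycan gene activated by SOX9 with SOX5 and SOX6, 47.3 kb from the gene at 39.8-fold with 63 fragments (48.4 to 80.6), which was higher than at any of the 8 SOX genes but with an interval that overlapped that of the strong Sox5 summit. Has2, a hyaluronan synthase of cushion matrix, followed at 7.67-fold. Of 8 progenitor genes linked to group C, 5 had none and 3 had a summit (37.5%): Nrp1 (14.7-fold, 32 fragments), Dcx (8.19-fold) and Tubb3 (5.04-fold).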

How the data were processed

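FOG2 occupancy was measured in 2 pulldown libraries with 1 input library, and the authors deposited 1 peak list for the pooled pulldown, so no value has a replicate spread. Build mm10 and the tools Bowtie2 2.3.2, SAMtools 1.5, Picard and MACS2 2.1.1 come from the submitters' processing notes, with aligner and caller settings not given in the sources used here. Peaks in blacklisted regions had been taken out, per the name of the deposited file. At each summit the authors deposited a fold (a linear ratio of pulldown to control), a −log10 p and a −log10 q. The display score they also deposited restates the −log10 q and was not used.

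Pulldown fragments and control level were solved from the fold and −log10 p, taking the fold as fragments plus 1 over control level plus 1 and the p as a Poisson tail. For 100% of peaks a whole number matched within 0.001 (largest misfit 0.000148), and every SOX summit had 1 such match, while in 83 peaks of the whole list another number also matched. The procedure was tested on simulated data. Intervals on fragments are exact 95% Poisson intervals, those on shares are Wilson 95% intervals, and both cover counting error only. PCR duplicates are not independent molecules.

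Each summit went to the gene body nearest to it among 21631 protein-coding genes (RefSeq, GRCm38.p6, the mm10 assembly) within 100 kb, and a summit in several bodies counted for each. A gene's territory is the stretch nearer to it than to any other gene within 100 kb, on a 1 kb grid. Promoter windows are the 250 bases before each start in the available set of RefSeq windows for the same build. That set has none for Sox7, Sox9, Sox17 and Sox18 and may lack starts of other genes. The gene table gives neither strand nor exons. Python 3.11.15, numpy 2.4.6, pandas 2.3.3, scipy 1.17.1 and matplotlib 3.10.9 were used. The members and lists were chosen with earlier results of these data known, so no test was run. Named genes are the 8 members, the rest of the family, the nearest genes on either side and up to 4 genes with a summit in each related list. In the SOX6 list, the endothelial list and the cushion and cartilage list, the genes without a summit were also named. Gm29797, the noncoding genes over or beside a summit and the genes holding a nearby summit were named after their values were seen. The other settings tried, given in the closing section, changed the peak threshold, the distance limit, the genes competing for a summit, the way summits were assigned and the merging of close summits.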

Additional observations from a re-analysis of the deposited data

How the results depend on the processing

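No paired analysis was possible because the 2 pulldown libraries were deposited as 1 pooled list, and for the same reason no replicate could be left out. Of the 10 other settings, 8 kept the 14 summits within 1.5 times (10 to 17), while the stronger 50% of peaks left 5 and assignment to the nearest gene end left 6. The number of the 8 genes with a summit was 3 to 5 in 8 settings and 2 both in the stronger 50% of peaks (Sox5 and Sox6) and with genes of any biotype competing (the same pair). The share of summits inside a gene body, 64.3%, became 90% with genes of any biotype and 16.7% with the nearest gene end, which by construction drops summits over 100 kb from an end. The median fold stayed between 6.12 and 8.12 in all 10 settings, with the 8.12 from the stronger 50% of peaks. That setting and a fold of at least 5 select on fold itself, so by construction they cannot lower the median. Family genes with a summit, 5 of 19, became 3 in the stronger 50% of peaks, 3 within 10 kb, 3 within 20 kb and 2 with genes of any biotype. Leaving out predicted genes with Gm or Rik symbols, a setting chosen after seeing the data, gave Sox18 the 27.1-fold summit and made the member count 5. The fragment intervals of 13 of the 14 summits, at 6 to 17 fragments, all overlapped each other; differences between them were not tested. Sox5 had 4 summits instead of 7 at a fold of at least 5 or a −log10 q of at least 5, and 2 with the nearest gene end, which lost the 34.1-fold summit.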

Other observations

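Of the SOX genes that were not among the 8, Sox1, a gene of neural progenitors, had the strongest peak as its nearest summit. That peak was 33.0-fold over control with 52 fragments (38.8 to 68.2) and lay 338 kb from Sox1, nearer to Tex29 (201 kb), so the 100 kb limit gave it to no gene.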
